A study of Mus musculus with 10 samples.

Results

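The 10 genes described here are the p53, RB and CDK inhibitor genes of KPN1.1 tumors: Trp53 and Mdm2, the inhibitor genes Cdkn1a, Cdkn1b, Cdkn1c, Cdkn2a, Cdkn2b and Cdkn2c, and Ccnd1 and Rb1. They were chosen by symbol and are 10 of the 55401 genes in the deposited count table, of which 17464 passed the filter on low counts, and all 10 members passed it. RNA was sequenced from 10 subcutaneous tumors, 5 from mice treated with liraglutide, an agonist of the glucagon-like peptide-1 receptor, and 5 from mice given PBS as the vehicle. All mice were obese male C57BL/6J, aged 7 to 17 weeks at injection, with obesity from a diet in which 60% of calories were fat. Each received 75000 KPN1.1 cells under the skin of the flank, and daily intraperitoneal treatment (liraglutide at 0.2 μg/g body weight) began when tumors were palpable, on day 6 or 7. The mice were euthanized between days 19 and 22. KPN1.1 is a single mouse lung adenocarcinoma line that carries the NINJA neoantigen transgene, and both groups were made with it. Every tumor fragment also holds host cells, which carry intact Trp53 and Cdkn2a genes, and there was no other line and no cell culture or normal tissue with which to compare the levels.

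p53 is a transcription factor that responds to DNA damage and oncogene activity by switching on genes for cell cycle arrest, repair and cell death, and Mdm2 is both its target and the ubiquitin ligase that marks it for degradation. Cyclin D1 with CDK4 or CDK6 phosphorylates the retinoblastoma protein, RB, which otherwise holds back the E2F factors that drive S phase genes. The inhibitors fall into the CIP/KIP family (p21 from Cdkn1a, p27 from Cdkn1b, p57 from Cdkn1c) and the INK4 family (p16 from Cdkn2a, p15 from Cdkn2b, p18 from Cdkn2c). Cdkn2a also encodes ARF, which binds Mdm2 and so links the locus to p53.

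Total counts lay between 9927942 and 14480593 per tumor, and 3 counts, the least taken as detected, correspond to 0.207 to 0.302 CPM. CPM are counts scaled to a common library size, here after adjustment by the trimmed mean of M values (TMM), so they compare 1 gene between tumors. The epithelial tumor markers chosen here (Epcam, Krt7, Krt8, Krt18, Krt19 and Cdh1, 6 of 6 found) summed to between 4703 and 10060 CPM in vehicle and between 4893 and 7217 CPM in liraglutide tumors. Markers of other cells were also present. Leukocyte markers (13 of 13 found) summed to 331 to 963 CPM with vehicle and 523 to 1433 CPM with liraglutide, fibroblast markers (9 of 9) to 1716 to 4071 and 2341 to 3987 CPM, skeletal muscle markers (8 of 8) to 208 to 878 and 498 to 1590 CPM, and keratinocyte markers (5 of 6) to 8.36 to 18.8 and 6.65 to 224 CPM. No marker was at 0 in all tumors. None of 8 marker lists passed the comparison of treatments (mean log2 CPM, exact permutation test, two-sided, smallest p = 0.111, adjusted p = 0.343 over the 8 lists, where 5 against 5 allow 0.00794 at the least).

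Liraglutide and vehicle tumors were compared to ask whether treatment went with a different level of these checkpoint genes. By edgeR's quasi-likelihood test, 0 of 10 members had an adjusted p under 0.05, where 0 of all 17464 genes (0%) did, with a smallest adjusted p of 0.482. At an unadjusted p under 0.05 there were 2 of 10 members, Mdm2 and Cdkn1a, both with lower means in liraglutide tumors. Over all genes 9.59% had such a p, 3.97% with a higher and 5.62% with a lower mean. With library size alone as the scaling, 990 genes were higher and 619 lower, against 694 and 981 with TMM. The groups overlapped in all 10 members, and over all genes 1.49% did not overlap, 0.607% with liraglutide higher and 0.888% with liraglutide lower. The median log2 fold change was 0.015 for the members and -0.017 for all genes. By DESeq2, the tool of the study, 52 of 3796 genes with an adjusted p (1.37%) were called, and 0 of these were members. Its filter on mean counts left an adjusted p for only 3 of the 10 members (Mdm2, Cdkn1b and Ccnd1), so the other 7 could not be called there. Without that filter it called 11 genes and again 0 members. At an unadjusted p under 0.05 it had the same count of 2 members, where 6.13% of all 35103 genes had such a p.

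**Figure D1:**
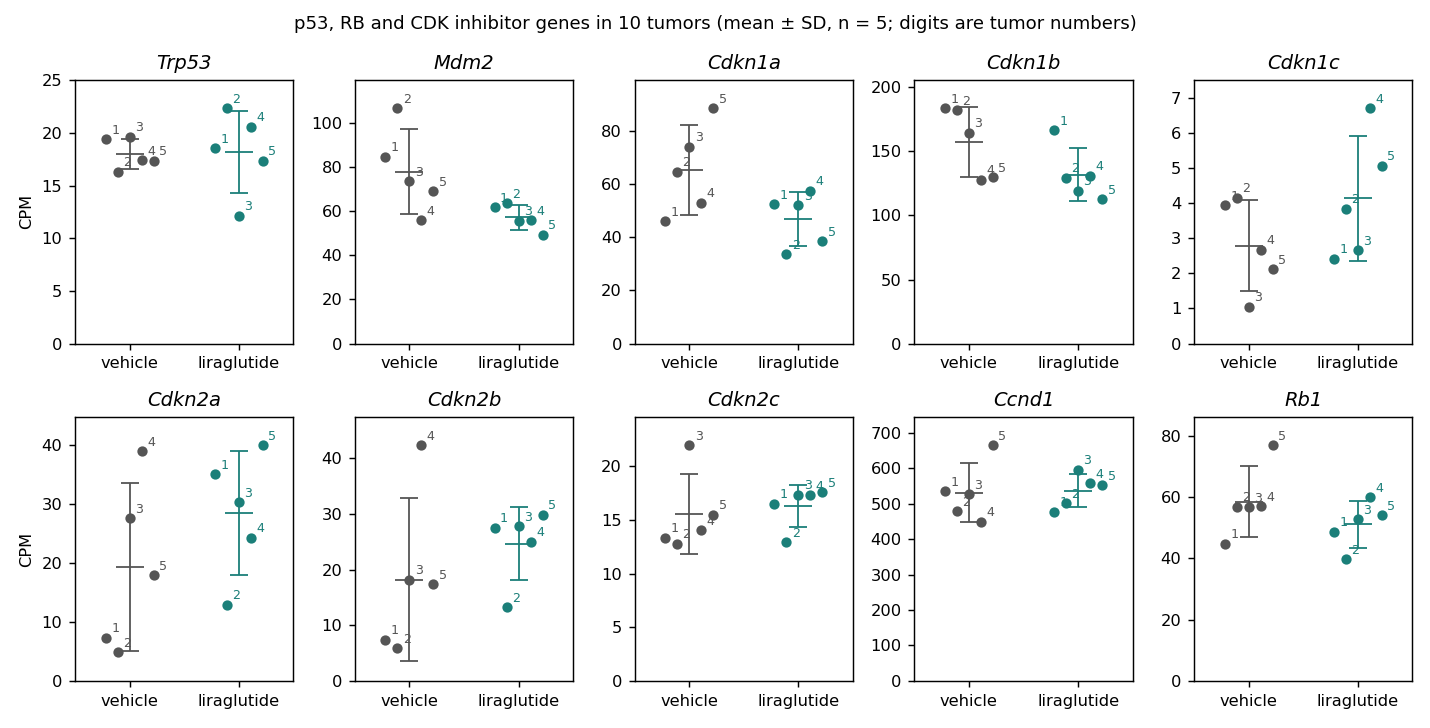
CPM of each member (vertical axis, from 0) in the 5 vehicle (grey) and 5 liraglutide (green) tumors, with tumor numbers as digits and bars for mean ± SD. The groups overlap in every panel, Mdm2 and Cdkn1a have lower liraglutide means, and Cdkn2a and Cdkn2b spread most between tumors.

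Trp53 (ENSMUSG00000059552.13, GRCm39 chromosome 11, 69469669 to 69482701, plus strand), which encodes p53, was read in every tumor, with 160 to 281 counts. Its levels were 19.4, 16.3, 19.6, 17.4 and 17.3 CPM in vehicle tumors 1 to 5. They were 18.6, 22.4, 12.1, 20.6 and 17.3 CPM in liraglutide tumors 1 to 5. The 5 vehicle tumors lay close together, and the liraglutide tumors held both the lowest and the highest value. The means were 18.0 ± 1.44 (SD, n = 5) and 18.2 ± 3.90 CPM (SD, n = 5), with a log2 fold change of 0.01 (95% interval -0.33 to 0.36, edgeR adjusted p = 0.984). The sign of so small a value depended on the fit. In the M39 annotation the exons of Trp53 share 263 bases with Wrap53 on the opposite strand, and Wrap53 had 80 to 146 counts. The kit marks strand, but the strand setting of the counting was not stated.

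Counts per gene do not separate the exons of a transcript, and reads of tumor cells and of host cells cannot be told apart. The Trp53 level therefore does not give the p53 state of the line.

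Mdm2 (ENSMUSG00000020184.15, chromosome 10, 117524780 to 117546730, minus strand), the ligase that degrades p53, measured 84.8, 107, 73.5, 55.9 and 69.0 CPM in vehicle tumors 1 to 5. In liraglutide tumors 1 to 5 it measured 61.9, 63.7, 55.6, 55.9 and 49.4 CPM. Vehicle tumors 1, 2, 3 and 5 lay above all liraglutide tumors, and vehicle tumor 4 lay among them. The means were 78.0 ± 19.1 (SD, n = 5) and 57.3 ± 5.70 CPM (SD, n = 5). The log2 fold change was -0.44 (standard error 0.16, 95% interval -0.79 to -0.09), with an unadjusted p of 0.0174 and an adjusted p of 0.482 from edgeR. The exact permutation test of this gene alone gave p = 0.0397 (two-sided), and DESeq2 an adjusted p of 0.184. Without vehicle tumor 2, the highest, the log2 fold change was -0.31.

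No CIP/KIP inhibitor passed the adjusted test. Cdkn1a (ENSMUSG00000023067.14, chromosome 17, 29309936 to 29319701, plus strand) encodes p21, the classic p53-induced inhibitor. It measured 46.1, 64.6, 74.0, 53.1 and 88.6 CPM in vehicle tumors 1 to 5. In liraglutide tumors 1 to 5 it measured 52.5, 33.6, 52.1, 57.5 and 38.5 CPM. Vehicle tumors 2, 3 and 5 exceeded all liraglutide tumors, and liraglutide tumors 2 and 5 were below all vehicle tumors. The means were 65.3 ± 16.9 (SD, n = 5) and 46.9 ± 10.2 CPM (SD, n = 5), with a log2 fold change of -0.48 (standard error 0.20, 95% interval -0.92 to -0.04, edgeR unadjusted p = 0.0362, adjusted p = 0.512). The exact permutation test gave p = 0.0794. With each tumor left out the value ranged from -0.58 to -0.34, and the unadjusted p by edgeR was over 0.05 without vehicle tumor 2, 3 or 5 or liraglutide tumor 2 or 5, the largest being 0.107 without vehicle tumor 5. Cdkn1a shares 504 exon bases with the antisense gene Dino, which had 7 to 25 counts.

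Because p21 is the member most tied to p53, the promoter of its upstream start is shown. It is the sequence before the start in RefSeq's promoter table (build GRCm38.p6), which held 7 of the 10 members with 10 starts in all, and was placed on GRCm39 by an exact match. Bases that M39 puts in an exon of the same gene were left out (17 here). The capitals mark a p53 response element, defined here as 20 bases made of 2 adjoining decamers with at most 1 mismatch and intact cores, found in 15 of 32851 RefSeq promoters (0.0457%) and in 1 of the 10 starts of the members.
Cdkn1a, upstream start, chr17:29309703-29309935, plus strand: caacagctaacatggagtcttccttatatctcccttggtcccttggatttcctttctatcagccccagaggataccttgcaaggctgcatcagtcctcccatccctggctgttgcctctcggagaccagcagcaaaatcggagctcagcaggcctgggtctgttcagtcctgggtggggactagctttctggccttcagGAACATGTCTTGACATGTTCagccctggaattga
The other start of Cdkn1a in that table held no such element and is not shown. The element was sought on the sequence alone and no binding was measured. A match is a description of these letters.

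Cdkn1b (ENSMUSG00000003031.14, chromosome 6, 134897364 to 134902476, plus strand) encodes p27, which restrains CDK2. Vehicle tumors 1 to 5 measured 184, 182, 165, 128 and 130 CPM. Liraglutide tumors 1 to 5 measured 166, 129, 119, 131 and 113 CPM. Vehicle tumors 1 and 2 stood highest, and vehicle tumors 3, 4 and 5 lay within the liraglutide range. The means were 158 ± 27.3 (SD, n = 5) and 132 ± 20.8 CPM (SD, n = 5), with a log2 fold change of -0.26 (95% interval -0.58 to 0.06, edgeR adjusted p = 0.581). Cdkn1c (ENSMUSG00000037664.13, chromosome 7, 143012069 to 143014806, minus strand), the imprinted gene of p57, was low, with 10 to 71 counts. It ranged from 1.05 to 4.16 CPM with vehicle and from 2.42 to 6.71 CPM with liraglutide, with a log2 fold change of 0.56 (95% interval -0.29 to 1.41, edgeR adjusted p = 0.643). It was 0.33 without liraglutide tumor 4 and 0.36 without vehicle tumor 3. Liraglutide tumors 4 and 5 exceeded all vehicle tumors.

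The INK4 genes Cdkn2a and Cdkn2b differed more between tumors of a group than between the group means. Cdkn2a (ENSMUSG00000044303.6, chromosome 4, 89192708 to 89212890, minus strand), the gene of p16 and ARF, had 48 to 536 counts. It measured 7.32, 4.87, 27.5, 38.9 and 17.9 CPM in vehicle tumors 1 to 5. In liraglutide tumors 1 to 5 it measured 35.0, 12.9, 30.2, 24.3 and 39.9 CPM. Vehicle tumors 1 and 2 stood lowest, vehicle tumor 4 was among the highest, and the highest value was 8.20 times the lowest. The means were 19.3 ± 14.2 (SD, n = 5) and 28.5 ± 10.4 CPM (SD, n = 5), with a log2 fold change of 0.56 (standard error 0.50, 95% interval -0.55 to 1.67, edgeR adjusted p = 0.712). p16 and ARF share exons, and counts per gene do not separate them.

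Cdkn2b (ENSMUSG00000073802.5, chromosome 4, 89223204 to 89229276, minus strand) is the neighbor of Cdkn2a and encodes p15, an inhibitor of CDK4 and CDK6. It measured 7.39, 5.88, 18.2, 42.3 and 17.3 CPM in vehicle tumors 1 to 5. In liraglutide tumors 1 to 5 it measured 27.6, 13.2, 27.8, 25.0 and 29.8 CPM. The same vehicle tumors, 1 and 2, were lowest and vehicle tumor 4 was highest. The means were 18.2 ± 14.6 (SD, n = 5) and 24.7 ± 6.64 CPM (SD, n = 5), with a log2 fold change of 0.44 (95% interval -0.58 to 1.46, edgeR adjusted p = 0.754). It was 0.21 without vehicle tumor 2, 0.23 without vehicle tumor 1 and 1.03 without vehicle tumor 4 (edgeR unadjusted p = 0.0185), 0.74 by limma-voom and 0.72 in a fit blocked on tumor number. Cdkn2a likewise ranged from 0.32 without vehicle tumor 2 to 1.00 without vehicle tumor 4, with 0.87 by limma-voom and 0.82 with the block. Cdkn2c (ENSMUSG00000028551.14, chromosome 4, 109517957 to 109524386, minus strand), the gene of p18, ranged from 12.8 to 21.9 CPM with vehicle and from 12.9 to 17.6 CPM with liraglutide. Its log2 fold change was 0.07 (95% interval -0.29 to 0.44, edgeR adjusted p = 0.894), with 0.012 without vehicle tumor 2 and 0.24 without vehicle tumor 3.

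Ccnd1 (ENSMUSG00000070348.5, chromosome 7, 144483668 to 144493662, minus strand), the gene of cyclin D1, measured 536, 479, 528, 450 and 665 CPM in vehicle tumors 1 to 5. It measured 478, 502, 597, 558 and 552 CPM in liraglutide tumors 1 to 5. The vehicle tumors held both the lowest and the highest value. Its log2 fold change of 0.02 had the narrowest interval of the members (-0.24 to 0.28, edgeR adjusted p = 0.975). In M39, 48.4% of its exon bases overlap LTO1 on the opposite strand, which had 104 to 256 counts where Ccnd1 had 4720 to 8167. Rb1 (ENSMUSG00000022105.6, chromosome 14, 73421113 to 73563507, minus strand), the gene of RB, measured 44.8, 56.9, 56.8, 57.2 and 77.0 CPM in vehicle tumors 1 to 5. Liraglutide tumors 1 to 5 measured 48.7, 39.8, 52.8, 60.1 and 54.2 CPM. Vehicle tumor 5 was highest and liraglutide tumor 2 lowest, with a log2 fold change of -0.19 (95% interval -0.53 to 0.14, edgeR adjusted p = 0.677). It was -0.07 without vehicle tumor 5, -0.11 without liraglutide tumor 2 and -0.28 without vehicle tumor 1.

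**Figure D2:**
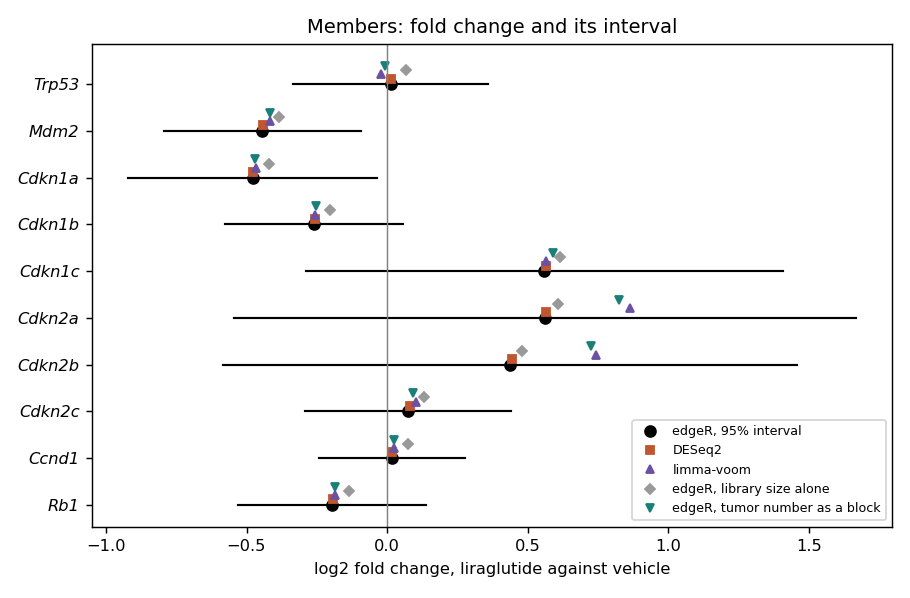
Log2 fold change of each member, liraglutide against vehicle (horizontal axis), by edgeR (black dot, line for the 95% interval) and by 4 other fits (colored symbols). The intervals of Mdm2 and Cdkn1a lie below 0 before adjustment, the other 8 include 0, and the intervals of Cdkn2a and Cdkn2b are the widest.

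Cdkn2a and Cdkn2b followed each other across the 10 tumors. Among 45 pairs of members, looked at after the data had been seen, they had the highest correlation of log2 CPM (Pearson r = 0.971, permutation p = 4e-05, adjusted p = 0.0018, Spearman rho = 0.964, permutation p = 0.00011). Without vehicle tumors 1 and 2, which lay farthest from the median, r was 0.892, and after the group means were subtracted it was 0.965. The ratio of Cdkn2a to Cdkn2b counts stayed between 0.828 and 1.51 while Cdkn2a varied 8.20-fold. Over all tested genes Cdkn2b ranked 5th in likeness to Cdkn2a after centring, behind Ptpn6 (r = 0.988), Ndst2 (0.976), Ctbs (0.974) and Styxl2 (0.971, 7 to 26 counts). In all, 113 genes (0.647%) had an r over 0.9 with Cdkn2a over these 10 tumors.

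Because Cdkn2a and Cdkn2b moved together, the sequences before their starts are shown. Cdkn2a has separate starts for ARF (the distal one) and p16, and 34 exon bases were left out before the ARF start and 7 before the Cdkn2b start. Capitals mark the E2F motif TTTNNCGC in the Cdkn2a sequences, which 4.28% of promoters hold on either strand, and the cyclic AMP response element TGACGTCA in Cdkn2b, which 1.55% hold.
Cdkn2a, ARF start, chr4:89212891-89213106, minus strand: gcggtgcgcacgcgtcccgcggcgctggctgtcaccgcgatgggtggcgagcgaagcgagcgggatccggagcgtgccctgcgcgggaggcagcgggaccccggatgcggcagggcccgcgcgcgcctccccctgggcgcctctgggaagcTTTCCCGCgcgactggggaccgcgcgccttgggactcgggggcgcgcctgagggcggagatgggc
Cdkn2a, p16 start, chr4:89200430-89200679, minus strand: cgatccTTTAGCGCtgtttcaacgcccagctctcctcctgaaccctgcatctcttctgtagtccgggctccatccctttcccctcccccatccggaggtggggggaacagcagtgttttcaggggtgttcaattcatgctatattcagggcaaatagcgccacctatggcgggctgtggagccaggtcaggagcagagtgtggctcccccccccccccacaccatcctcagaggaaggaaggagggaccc
Cdkn2b, chr4:89229277-89229519, minus strand: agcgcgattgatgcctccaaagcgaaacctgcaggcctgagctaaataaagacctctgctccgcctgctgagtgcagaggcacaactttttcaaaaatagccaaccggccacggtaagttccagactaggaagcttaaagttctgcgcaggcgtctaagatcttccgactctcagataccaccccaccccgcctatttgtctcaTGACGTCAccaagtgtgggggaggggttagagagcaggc
In the full window of 250 bases the ARF start held 40 CpG dinucleotides at 78.4% GC, the p16 start 7 at 60%, and Cdkn2b 12 at 53.6%, against medians of 6 and 52.4% over all promoters. The starts of Cdkn2a and Cdkn2b held different marked motifs. Among the 10 starts of the members, 3 held the E2F motif, the other being that of Mdm2, and 1 held the cyclic AMP element. Chromatin and methylation at these sequences were not measured.

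Mdm2 ran in the opposite direction to both genes. Its correlation with Cdkn2a was -0.882 (permutation p = 0.00144, adjusted p = 0.0162, rho = -0.842, permutation p = 0.00368), and with Cdkn2b -0.907 (permutation p = 0.00058, adjusted p = 0.0131, rho = -0.903, permutation p = 0.00094). Without vehicle tumors 1 and 2, which had the highest Mdm2 and the lowest Cdkn2a, r was -0.534 and -0.683, so the relations rest in part on them. Centred on the group means, they were -0.882 and -0.919. Of 17463 genes, Mdm2 then ranked 169th from the lowest in its correlation with Cdkn2a, and 101 genes had an r under -0.9. The opposition to Cdkn2a was thus not particular to Mdm2. Mdm2 and Cdkn1b varied in the same direction between tumors (r = 0.844, permutation p = 0.00139, adjusted p = 0.0162, rho = 0.855, permutation p = 0.00303), with r = 0.702 without vehicle tumors 1 and 2. Cdkn1a and Rb1 had r = 0.831 (permutation p = 0.00396, adjusted p = 0.0356, rho = 0.806, permutation p = 0.00716), which was 0.467 without liraglutide tumor 2 and vehicle tumor 5 and rests on these. The other 40 pairs did not pass the adjustment. Mdm2 with Cdkn1a, both p53 targets, had r = 0.364 (permutation p = 0.298, adjusted p = 0.831, rho = 0.406, permutation p = 0.246) and r = 0.593 without vehicle tumors 1 and 2, but -0.046 after centring on the group means.

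**Figure D3:**
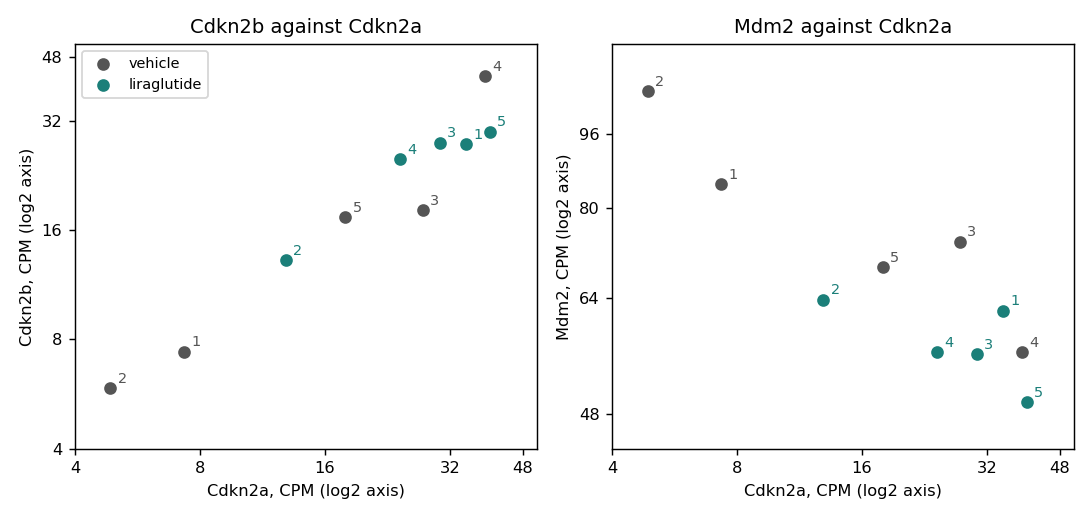
Cdkn2b (left) and Mdm2 (right) against Cdkn2a in CPM, all axes on a log2 scale, for 5 vehicle (grey) and 5 liraglutide (green) tumors with tumor numbers. Cdkn2b rises with Cdkn2a in both groups, and Mdm2 is highest in vehicle tumors 1 and 2, where Cdkn2a is lowest.

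Marker lists of other cells varied along with some members. Of 50 correlations between members and 5 marker lists, 2 passed the adjustment, Cdkn1b with leukocyte markers (r = -0.948, permutation p = 7e-05, adjusted p = 0.0035, rho = -0.903, permutation p = 0.00075) and Mdm2 with leukocyte markers (r = -0.827, permutation p = 0.00172, adjusted p = 0.043, rho = -0.879, permutation p = 0.00145). Without vehicle tumors 1 and 2, r was -0.899 and -0.722. Centred on the group means, the relation of Mdm2 no longer passed (r = -0.780, permutation adjusted p = 0.0643). The mean log2 CPM of the leukocyte list ran from 2.48 in vehicle tumor 1 to 3.68 in liraglutide tumor 3, and Cdkn1b was highest where it was low. In whole fragments, fewer cells of a type and less RNA per cell cannot be told apart. The share of all genes with such correlations was not examined, so these relations cannot be called particular to the members.

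With lists added after the data had been seen, 6 of 20 correlations passed, again without a share over all genes to set beside them. Cdkn1b had r = -0.971 with a list of lung and foregut genes, here called lung lineage genes (Nkx2-1, Sftpc, Sftpb, Napsa, Foxa2 and Hnf4a, permutation p = 3e-05, adjusted p = 0.0006, rho = -0.976, permutation p = 3e-05) and -0.939 without vehicle tumors 1 and 2. The lung lineage genes summed to 322 to 997 CPM with vehicle and 559 to 985 CPM with liraglutide. Hnf4a, which is not particular to lung, held 199 of the 322 CPM in vehicle tumor 1. Mdm2 had r = -0.858 with the same list (permutation p = 0.00079, adjusted p = 0.00627, rho = -0.879, permutation p = 0.0016) and -0.748 without vehicle tumors 1 and 2. Cdkn2b had r = -0.857 with E2F target and proliferation genes (permutation p = 0.00094, adjusted p = 0.00627, rho = -0.879, permutation p = 0.00172), and Cdkn2a r = -0.742 (permutation p = 0.0134, adjusted p = 0.0446, rho = -0.794, permutation p = 0.00895). Without vehicle tumors 2 and 3 these were -0.963 and -0.926, and centred on the group means that of Cdkn2a no longer passed (r = -0.698, permutation adjusted p = 0.0777). Mdm2 had r = 0.780 with the E2F targets (permutation p = 0.00602, adjusted p = 0.0301, rho = 0.903, permutation p = 0.00073), 0.754 without the same tumors, and centred it did not pass (r = 0.776, permutation adjusted p = 0.0522). Cdkn2b had r = 0.768 with lung lineage genes (permutation p = 0.00998, adjusted p = 0.0399, rho = 0.758, permutation p = 0.0149), which was 0.427 without vehicle tumors 1 and 2 and rests on them, and centred it did not pass (r = 0.709, permutation adjusted p = 0.0777). By mean log2 CPM, the leukocyte and lung lineage lists were both lowest in vehicle tumors 1 and 2. Both were highest in liraglutide tumors 3 and 5, so their relations with Cdkn1b and Mdm2 are not independent of each other. The part of host cells and differentiation in the members' levels was not tested.

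Genes around the members were taken from 8 pathway lists, described by counts. Over all genes 47.4% had a positive log2 fold change, and at an unadjusted p under 0.05 3.97% were higher and 5.62% lower. Single tumors moved most of the counts at that p. Of 31 p53 target genes, all tested, 13 had a positive log2 fold change, 2 were higher and 1 lower at an unadjusted p under 0.05, and the median was -0.08. The count of 3 at that p was 1 without vehicle tumor 5, 5 without liraglutide tumor 2 and 6 without vehicle tumor 4. The 3 with the smallest p were Ak1, an adenylate kinase (8.63 ± 2.21 against 13.8 ± 3.17 CPM, log2 fold change 0.68), Pmaip1, the death gene Noxa (119 ± 38.2 against 76.8 ± 18.7 CPM, -0.63), and Ddb2, a DNA damage sensor (8.49 ± 1.52 against 11.3 ± 2.34 CPM, 0.42), each given as vehicle then liraglutide mean ± SD (n = 5). None had an adjusted p under 0.48 by edgeR. The others named had log2 fold changes of -0.20 for Bax, -0.33 for Bbc3 (Puma), -0.10 for Ccng1, -0.43 for Gdf15 and 0.16 for Zmat3, with Bax at 7.02 to 11.7 CPM and Ccng1 at 82.0 to 136 CPM over the 10 tumors. Single tumors moved these values. With each left out, Bax ranged from -0.27 to -0.12, Zmat3 from 0.11 to 0.28, Bbc3 from -0.47 to -0.073 and Gdf15 from -0.60 to -0.0046, the last of both without vehicle tumor 5. Without vehicle tumor 5, where Gdf15 (8.88 CPM) and Bbc3 (8.47 CPM) were highest, the median of the p53 targets was 0.14.

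Of 16 genes of the p53 family and its regulators, 15 were tested, and 2 were higher and 2 lower at an unadjusted p under 0.05, with a median of -0.01. The count of 4 at that p was 1 without vehicle tumor 1, vehicle tumor 2 or liraglutide tumor 4, and 2 without vehicle tumor 3, vehicle tumor 4, liraglutide tumor 3 or liraglutide tumor 5, and the median ranged from -0.062 to 0.020. Atr, a damage-sensing kinase, averaged 103 ± 12.4 CPM with vehicle and 75.0 ± 10.1 CPM with liraglutide (SD, n = 5, log2 fold change -0.45), and the checkpoint kinase Chek1 18.1 ± 4.95 and 12.9 ± 1.85 CPM (-0.49). The acetyltransferase Ep300 averaged 249 ± 13.5 and 282 ± 7.02 CPM (0.18) and was the gene of the list whose groups did not overlap, where 1.49% of all genes did not. Mdm4, the partner of Mdm2, had a log2 fold change of 0.07 with 167 to 228 CPM, and 0.036 to 0.15 with each tumor left out. The p53 relative Trp63, also an epidermal gene, had 1 to 71 counts and a log2 fold change of 1.75 (unadjusted p = 0.0436, adjusted p = 0.515 by edgeR), with its highest value, 5.79 CPM, in liraglutide tumor 2, without which the log2 fold change was 1.14. Keratinocyte markers were highest in that tumor as well, at a mean log2 CPM of 5.24, and their part in the value was not tested. Trp73 had 0 to 7 counts.

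Of 13 G1 cyclin, CDK and RB family genes, 0 were higher and 1 lower at an unadjusted p under 0.05, with a median of -0.01. There were 3 at that p without vehicle tumor 4 and 2 without vehicle tumor 5, and the median ranged from -0.043 to 0.015 with each tumor left out. The 1 gene was Ccne2, a cyclin of the G1 to S step, at 23.0 ± 4.45 and 16.8 ± 2.39 CPM (SD, n = 5, log2 fold change -0.45). Next by p were Rbl2 (0.13, and 0.096 to 0.22 with each tumor left out) and Cdk2 (0.13, and 0.071 to 0.17). The partners of cyclin D1 measured -0.20 for Cdk4 and 0.10 for Cdk6, and the other D cyclins 0.26 for Ccnd2 and 0.12 for Ccnd3. Ccnd2 varied widely, from 121 CPM in vehicle tumor 1 to 775 CPM in vehicle tumor 5. Cdkn2d, the gene of the INK4 inhibitor p19, measured -0.23. With each tumor left out, Ccnd2 ranged from 0.028 (without vehicle tumor 1) to 0.71 (without vehicle tumor 5), Ccnd3 from 0.051 to 0.20, Cdk4 from -0.32 to -0.11, Cdk6 from 0.059 to 0.15 and Cdkn2d from -0.37 to -0.13.

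The E2F factors had 2 positive values among 10, with 1 higher and 1 lower at an unadjusted p under 0.05 and a median of -0.19. The count of 2 at that p was 0 without vehicle tumor 1 or liraglutide tumor 5, 1 without vehicle tumor 2, liraglutide tumor 1 or liraglutide tumor 3, and 3 without vehicle tumor 4. The positive count was 4 without vehicle tumor 3, and the median ranged from -0.34 (without vehicle tumor 4) to -0.11 (without vehicle tumor 1). The values were -0.34 for E2f5, 0.39 for Tfdp2, -0.23 for Tfdp1 and -0.24 for E2f1, the activator that RB restrains (-0.39 without liraglutide tumor 2 and -0.13 without vehicle tumor 1). Of 18 E2F target and proliferation genes, 1 had a positive and 17 a negative log2 fold change, and 2 had an unadjusted p under 0.05. The count of 2 was 0 without vehicle tumor 1, 2 or 3 or liraglutide tumor 1 or 5, 1 without liraglutide tumor 3 or 4, 3 without vehicle tumor 5, 6 without liraglutide tumor 2 and 11 without vehicle tumor 4. It was 1 by limma-voom, with DESeq2's size factors, with library size alone and with at least 10 counts in every tumor. The list's median was -0.28, and -0.40 to -0.21 with each tumor left out, and 4 genes had a positive value without vehicle tumor 1 or 3. Ccnb1 measured -0.47, Rrm2 -0.55 and Ccna2 -0.40, with Rrm2, a subunit of ribonucleotide reductase, at 164 ± 54.5 and 112 ± 21.4 CPM (SD, n = 5). Mki67, the proliferation marker, averaged 725 ± 161 and 615 ± 120 CPM (-0.24, adjusted p = 0.671 by edgeR, and -0.36 to -0.17 with each tumor left out). The list named senescence secretory (11 genes, 10 tested) also holds Lmnb1 (-0.25), Hmga1 (-0.66) and Hmga2 (-0.51), which encode nuclear proteins. Its median is therefore not one of secreted factors alone. Il6, with 4 to 39 counts, was not tested. The list had 1 gene higher and 1 lower at an unadjusted p under 0.05 and a median of -0.63. The count of 2 at that p was 4 without liraglutide tumor 1, 5 without vehicle tumor 5 or liraglutide tumor 2, 3 without vehicle tumor 4 or liraglutide tumor 4, and 6 in the blocked fit. The higher was Igfbp7, at 115 ± 36.1 and 248 ± 74.9 CPM (1.11, adjusted p = 0.482 by edgeR and 0.0180 by DESeq2), the lower was the chemokine Cxcl1 (-1.02), and the matrix protease Mmp3 measured -0.63.

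**Figure D4:**
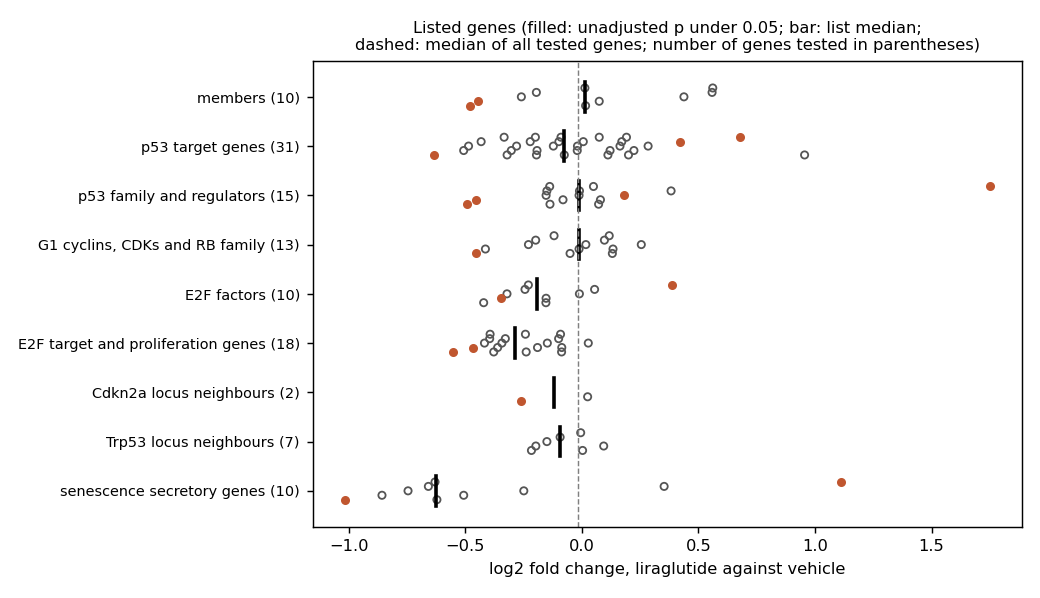
Log2 fold change of each tested gene (points; filled at an unadjusted p under 0.05) in the members and the 8 pathway lists, with black bars for list medians and a dashed line for the median of all genes. The E2F targets lie almost all below 0, at a median of -0.28, and the p53 targets spread around 0.

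Levels could be compared between genes only per length, as CPM per kilobase of exons in M39. Over 17267 genes with a length the median was 3.33 CPM per kilobase. The order of the members was Ccnd1, Cdkn1b, Cdkn2a, Cdkn1a, Mdm2, Cdkn2b, Rb1, Cdkn2c, Trp53 and Cdkn1c. Ccnd1 stood at 112 ± 13.3 CPM per kilobase (SD, n = 10 tumors), above 98.9% of genes in the median tumor, and Cdkn1b at 31.8 ± 5.86, above 94.3%. Ccnd1 lay apart from its neighbor, as its lowest tumor, at 94.0, was above the highest for Cdkn1b, at 40.4, while the lowest tumor for Cdkn1b, at 24.7, lay within the range of Cdkn2a. Cdkn2a followed at 20.4 ± 10.8 (median percentile 91.6), a range from 4.15 to 34.0 that took in those of Cdkn1a (9.27 ± 2.70) and Mdm2 (8.78 ± 2.23). Cdkn1a, Mdm2 and Cdkn2b (7.89 ± 4.12) did not differ beyond their spread on this length, nor did Cdkn2c (2.50 ± 0.45) and Trp53 (2.46 ± 0.38). Rb1 stood at 4.54 ± 0.83 and Cdkn1c at 1.61 ± 0.76, with ranges that overlapped those of their neighbors in the order. The order and ties below Ccnd1 depend on the length used. Per kilobase of the canonical transcript, Cdkn1b stood at 31.8 ± 5.86, Cdkn1a at 29.2 ± 8.50, Cdkn2a at 28.0 ± 14.9, Mdm2 at 21.8 ± 5.55, Rb1 at 10.9 ± 2.00, Trp53 at 9.79 ± 1.5, Cdkn2b at 7.89 ± 4.12 and Cdkn2c at 5.91 ± 1.05 (SD, n = 10), so that Cdkn1a had a higher mean than Cdkn2a, and Rb1 and Trp53 higher means than Cdkn2b. By the median percentile on that length, Cdkn2a (88.2) stood above Cdkn1b (87.6).

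Trp53 was above 41.4% of genes per kilobase of all exons and above 63.7% when the canonical transcript of 1850 bases replaced the 7379 bases of all annotated exons, so its place depends on the length used. Of 7 neighbors of Trp53 on chromosome 11, all tested, 2 had positive log2 fold changes and 0 an unadjusted p under 0.05. The positive count was 1 to 5 with each tumor left out, with 5 without liraglutide tumor 3, 4 without vehicle tumor 1, and 1 without vehicle tumor 3, liraglutide tumor 2 or liraglutide tumor 4. Those of smallest p were Fxr2 (-0.22), Atp1b2 (0.09) and Wrap53 (-0.15, 7.26 to 11.8 CPM), and Wrap53 stood at 2.96 ± 0.48 CPM per kilobase. With each tumor left out these log2 fold changes ranged from -0.30 to -0.12 for Fxr2, 0.066 to 0.14 for Atp1b2 and -0.22 to -0.068 for Wrap53. The genes nearest Trp53 in pattern after centring were Mir652 (r = 0.959), Poli (0.938), Snora31 (0.887), Taf1a (0.886) and Scarna17 (0.869), of which Mir652, Snora31 and Scarna17 had at most 57 counts.

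At the Cdkn2a locus, the metabolic enzyme gene Mtap, which is often lost together with Cdkn2a, stood at 203 to 322 CPM and 64.6 ± 9.52 CPM per kilobase (SD, n = 10), above 97.9% of genes in the median tumor. Its log2 fold change was 0.02, with means of 259 ± 38.3 and 263 ± 43.0 CPM (SD, n = 5). Vehicle tumors 1 and 2, lowest in Cdkn2a, had 301 and 272 CPM of Mtap. Klhl9 was at 161 ± 12.3 and 134 ± 9.86 CPM (SD, n = 5, log2 fold change -0.26, adjusted p = 0.482 by edgeR), while Dmrta1, Elavl2 and Ifna1 had at most 4, 2 and 1 counts in a tumor and were not tested. Cdkn2a and Cdkn2b thus had reads in all 10 tumors, with at least 48 and 58 counts, above the floor of 3. Host cells carry the locus, so tumor and host reads cannot be told apart, and the levels do not give the copy number in the line.

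**Figure D5:**
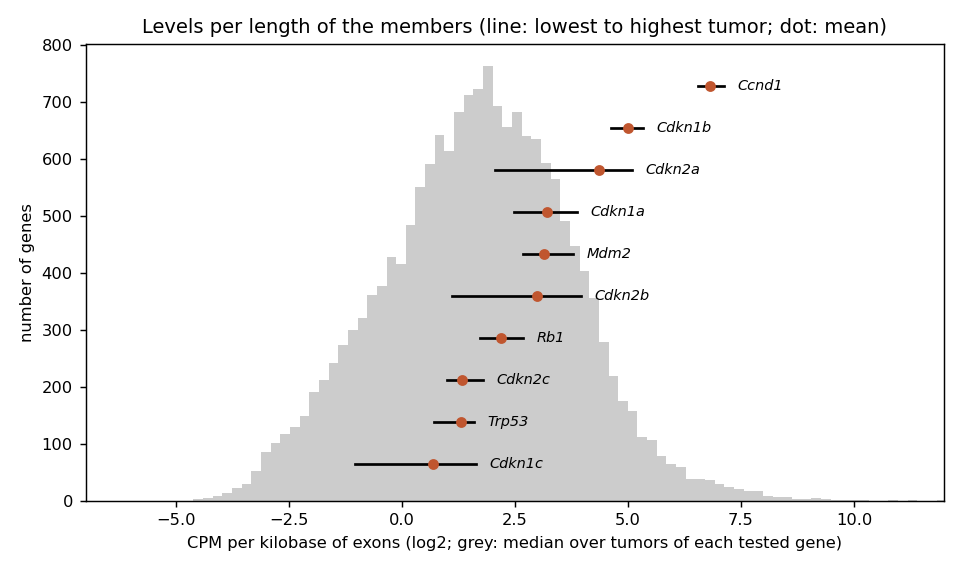
CPM per kilobase of exons on a log2 scale for each member (dot, mean of 10 tumors; line, lowest to highest tumor) over the distribution of medians of all tested genes with a length (grey, vertical axis in genes). Ccnd1 and Cdkn1b lie in the upper tail, Trp53, Cdkn2c and Cdkn1c in the lower part, and Cdkn2a and Cdkn2b span a wide range.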

How the data were processed

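RNA from fragments of 10 tumors was depleted of ribosomal RNA and sequenced as read pairs. Mapping, by the authors, used TopHat 2.0.13 on Bowtie 1.0.1 with GRCm39 as the genome, and the deposited values are raw featureCounts counts per gene. The submitters' processing notes also name mm10 and GRCh38. The annotation release, strand setting and handling of reads with several positions are not given in the sources used here. Of 55401 identifiers, 51731 matched GENCODE M39 without version, which gave symbols, positions and lengths. Groups and tumor numbers came from the sample titles. The labels do not name the mouse of each tumor, so p-values measure the spread between these tumors.

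Counts were filtered (filterByExpr), scaled by TMM and tested with edgeR 4.0.16 (quasi-likelihood F test, treatment as the only term, R 4.3.3), with Benjamini-Hochberg adjustment over 17464 genes and a threshold of 0.05. CPM used the same factors, and log2 CPM a prior count of 2. Total counts were 9927942 to 14480593. Between tumors of 1 group chi-square per degree of freedom was at least 9.31, so no 2 were counted as 1 library. Floors cover counting error only. Correlations used 100000 permutations with adjustment within each family (50, 20 or 45 relations). Alternatives were DESeq2 1.42.0, limma-voom (limma 3.58.1), other scalings, filters, exon lengths, a block for tumor number, and each tumor left out. The edgeR fit was tested on simulated data. Genes named by rule are the members, the 3 genes of smallest p in each pathway list, 17 genes fixed by name, and the 5 genes nearest Trp53 and Cdkn2a in pattern. Outside that rule, genes with overlapping exons, untested genes and contents of lists are named. The members, lists and tests were chosen with earlier results of these data known, and the 45 pairs, the lists added to the correlations and the canonical length after seeing the values. Promoters came from RefSeq (GRCm38.p6). The driver alleles of the line are not reported here.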

Additional observations from a re-analysis of the deposited data

Results flagged for a closer look

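In 112 groups of 5 tumors (the members, the other genes chosen by the naming rule and 8 marker lists, in each treatment), a tumor was compared with the others by its gap to the nearest, and 9 stood out. Chance flags about 1 in 20 groups, and the remaining listed genes were not examined. Among the members these were liraglutide tumor 2 for Cdkn2b, at 13.2 CPM where the others were at 25.0 to 29.8 CPM, and the same tumor for Cdkn2c, at 12.9 CPM against 16.5 to 17.6 CPM. Liraglutide tumor 2 also stood out for the E2F factor gene E2f1 (22.5 CPM, others 13.4 to 15.5), Ccna2 (85.9 CPM, others 61.8 to 65.7), Fxr2 (90.8 CPM, others 64.8 to 69.6) and Trp73 (0.571 CPM, others 0 to 0.149). Vehicle tumor 4 stood out for Tfdp1, at 72.4 CPM where the others were at 109 to 123 CPM, and for Trp73, at 0.0837 CPM where the others were at 0, a value under the floor of 3 counts (0.255 CPM in that tumor), where any read beside 4 zeros stands out. Vehicle tumor 5 stood out for Bbc3, at 8.47 CPM where the others were at 3.52 to 4.85 CPM.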

How the results depend on the processing

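By edgeR, 0 genes had an adjusted p under 0.05 under every scaling, filter and tumor left out, while DESeq2 called 52 genes, and 11 without independent filtering. No member was called by any fit. At an unadjusted p under 0.05 there were 1675 genes, 2585 with the tumor number as a block, and 919 to 2704 with each tumor left out. The members at that p were 2, with 1 under library size alone (Mdm2) and 1 to 4 with each tumor left out. The count was 1 without vehicle 2, vehicle 3, liraglutide 2 or liraglutide 5, and 4 without vehicle 4, and without vehicle 5 it was 2 with Cdkn1b in place of Cdkn1a. Trp53 turned to -0.022 by limma-voom and -0.0089 under the block, and with each tumor left out ranged from -0.064 to 0.13, Ccnd1 from -0.030 to 0.12, Mtap from -0.050 to 0.11 and Ccng1 from -0.17 to 0.027. The median of the p53 targets ranged from -0.13 to 0.14. Marker differences (log2) with each tumor left out ranged from -0.031 to 0.26 for fibroblast, -0.20 to 0.011 for endothelial, -0.52 to 0.30 for adipocyte and 0.65 to 1.22 for skeletal muscle markers, the last with an exact permutation p of 0.0397 without vehicle 3. By the longest transcript in place of all exons, the median percentile was 49.6 for Trp53, 83.6 for Mdm2, 90.7 for Cdkn1b and 72.7 for Rb1. By the canonical transcript it was 63.7 for Trp53, 81.0 for Mdm2, 86.9 for Cdkn1a, 87.6 for Cdkn1b, 51.4 for Cdkn2c, 98.4 for Ccnd1 and 67.1 for Rb1. The cause of these shifts was not tested, apart from the shorter length itself.

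Same-numbered tumors correlated at -0.0753 to 0.566 (3 of 5 pairs over 0.1), so the numbers were not taken as a pairing. Under the block, Cdkn1b (unadjusted p = 0.0412) and Mdm2 (0.00747) were the members under 0.05 by edgeR, and Cdkn1a had 0.0632. After centring on group means, 4 relations lost their adjusted p under 0.05: Mdm2 with leukocyte markers (permutation, adjusted p = 0.0643), Mdm2 with E2F targets (0.0522), Cdkn2a with E2F targets (0.0777) and Cdkn2b with lung lineage genes (0.0777). Cdkn1a with epithelial tumor markers gained one (r = 0.879, permutation adjusted p = 0.036, against 0.378 and 0.521 uncentred). The pair Cdkn1a and Rb1 lost its own under library size alone (0.0869).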
